A study of Homo sapiens with 4 samples.

Results

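The genes described here are 57 components of the machinery that copies DNA and makes its building blocks, read from the gene symbols of a deposited expression table of 20804 genes. They cover the origin recognition complex, the loaders of the replicative helicase, the MCM2-7 helicase and its activators, the replicative DNA polymerases, the sliding clamp and its loader, nucleotide synthesis, chromatin assembly, fork protection and 2 E2F transcription factors. All 57 symbols were found and all passed the filter on low values. Expression was measured by RNA sequencing in MDA-MB-231, a widely used human breast cancer line without hormone receptors or HER2 amplification. There were 2 libraries with the genotype label miR-3662-KO (KO) and 2 of the unmodified line (WT), all from total RNA. The series title names CRISPR interference and activation, and its design note names cells sorted by microRNA activity, so what the KO label stands for is not settled by the sources used here. Nothing states whether the libraries of a group were separate cultures or clones, so the p-values below cover the spread between these libraries, which may be technical.

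DNA replication starts in G1, when the origin recognition complex, CDC6 and CDT1 load the MCM2-7 helicase onto DNA. In S phase, CDC45 and the GINS complex turn that ring into an active helicase, DNA polymerase alpha-primase lays primers, and DNA polymerases epsilon and delta extend the leading and lagging strands with the clamp PCNA. The genes of many of these proteins are switched on together at the G1/S transition by E2F transcription factors, whose repression by the RB family is relieved by cyclin-dependent kinases. A level in a mixed cell population also depends on how many cells are in S phase, and in bulk RNA a smaller number of such cells cannot be told apart from less RNA per cell.

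The letters of the E2F site are shown first because the G1/S genes are known as E2F targets and many of the genes described here carry these letters. The RefSeq promoter windows of GRCh38.p14 (250 bases before to 50 after each annotated start, sometimes several starts per gene) were available for 50 of the 57 genes and searched on both strands for TTTGGCGC, TTTCCCGC, TTTCGCGC and TTTGCCGC, with overlapping matches counted separately. At least 1 of these was present in 26 of the 50 genes (52.0%), against 655 of 9400 genes tested (6.97%) and 1090 of 27305 genes in the table (3.99%). Counted by window, the letters stood in 39.4% of 66 windows of the replication genes, against 5.11% of 13689 windows of the genes tested. The share was 4 of 9 (44.4%) among the genes lower in KO in the test below and 21 of 39 (53.8%) among those not called. A match is a description of the letters and does not show binding. Only 1 match per gene is in capitals below, and the MCM6 stretch also holds an overlapping match, GCGCGAAA, partly in lower case. The following stretches of 30 bases run 5′ to 3′ on the strand of the gene. They were picked to show genes that were lower, higher or not called in KO.
MCM3: cggatggtacgTTTCCCGCcaccgcggggc
CDT1: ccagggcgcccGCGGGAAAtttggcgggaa
UNG: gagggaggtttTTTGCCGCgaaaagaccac
GINS2: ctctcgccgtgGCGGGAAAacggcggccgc
DUT: gaaatttcggtTTTGGCGCgctccctgcgg
MCM6: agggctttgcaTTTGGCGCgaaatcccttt
PCNA: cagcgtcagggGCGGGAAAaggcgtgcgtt
TYMS: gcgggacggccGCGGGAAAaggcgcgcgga
E2F1: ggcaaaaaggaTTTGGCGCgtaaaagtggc
These lie at chr6:52284898-52284927 (minus strand) for MCM3, chr16:88803743-88803772 (plus) for CDT1, chr12:109098098-109098127 (plus) for UNG, chr16:85688967-85688996 (minus) for GINS2 and chr15:48332159-48332188 (plus) for DUT. Those of the genes not called lie at chr2:135876577-135876606 (minus) for MCM6, chr20:5126663-5126692 (minus) for PCNA, chr18:657603-657632 (plus) for TYMS and chr20:33686387-33686416 (minus) for E2F1. The first base of the match shown was 174 bases upstream of the start in MCM3, 63 in UNG, 59 in PCNA, 35 in CDT1 and 31 in GINS2. MCM3 also held TTTCGCGC, with its first base 4 bases upstream of the start. RRM2, the gene with the largest difference below, held none of these letters in its windows.

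The microRNA named by the KO label is shown with its seed (bases 2 to 8) in capitals, as RefSeq gives it for GRCh38.p14 at chr6:134979355-134979378 on the minus strand.
hsa-miR-3662: gAAAAUGAugaguagugacugaug
The complement of that seed, TCATTTT, occurred in the longest annotated 3′ UTR (GENCODE 29) of 14 of the 57 genes (24.6%), against 3704 of 10879 genes tested (34.0%), with a median 3′ UTR of 1049 bases in the replication genes and 1633 bases in the genes tested. Of the 3 genes higher in KO 2 held it, RPA3 and TIMELESS, and of the 9 genes lower in KO only RRM2 did. The 3 sites with their surroundings follow, on the strand of the transcript, with the 7 letters in capitals.
RPA3: tatcggtcattTCATTTTcattcttttaa
TIMELESS: tgcctctgtccTCATTTTgtttcctatga
RRM2: gagaagccgttTCATTTTatttctcactg
They lie at chr7:7636687-7636715 (minus strand), chr12:56417248-56417276 (minus) and chr2:10130179-10130207 (plus) of GRCh38. Such a match of letters is no evidence of targeting.

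FPKM values (fragments scaled to transcript length and to the number of fragments mapped in the library) summed to 528986 and 544650 in KO and to 504102 and 520527 in WT. The mature microRNA is not a row of the table, so the values do not check the label. HBP1, the repressor gene in the series title, was at 8.35 and 9.71 FPKM in KO and at 2.97 and 4.66 FPKM in WT. Of 6 genes fixed as present in this line, VIM, CD44, AXL, EGFR and CAV1 were at 13.31 FPKM or more in every library, while SPARC stayed at 0.55 or less. ESR1 was at 0.01 or less and ERBB2 between 8.55 and 11.44. Leukocyte markers summed to 0.64 to 0.75 FPKM in KO and 0.5 to 0.74 in WT, endothelial markers to 0.39 to 0.67 in KO and 0.18 to 0.24 in WT, and fibroblast markers to 0.36 to 0.39 in KO and 1.16 to 1.57 in WT, with COL1A2, PTPRC and CD3E at 0 throughout. Libraries of 1 group differed with the GC content of transcripts. Across 11402 genes the Spearman correlation with GC was -0.592 for WT replicate 1 minus WT replicate 2 and 0.371 for KO replicate 1 minus KO replicate 2, so that WT replicate 1 and KO replicate 2 had relatively more of AT-rich transcripts. For KO minus WT it was -0.167. Calls after a correction for GC, added after seeing the data, are therefore given beside the results they alter.

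A minority of the replication genes differed between KO and WT, most of these being lower in KO. The ribonucleotide reductase gene RRM2, the licensing gene CDT1, the uracil-DNA glycosylase gene UNG, the helicase genes MCM3 and GINS2, ORC6, both large subunits of the CAF-1 histone chaperone and the flap nuclease gene FEN1 fell in KO, by 0.34 to 0.75 on the log2 scale. DUT, RPA3 and TIMELESS rose by 0.48 to 0.54. At an adjusted p under 0.05 in limma, 9 of 57 fell (15.8%) against a background of 10.8% of 11786 genes tested, and 3 rose (5.26%) against 16.2%. In either direction 12 of 57 (21.1%) were called against 27.0%, so these genes were not called more often than genes in general. The median log2 fold change, KO over WT on log2(FPKM + 1), was -0.055 for the 57 genes and 0.074 for all genes tested. Without KO replicate 1 the median of the 57 was 0.013, where that of the genes tested was 0.089. It was -0.127 without KO replicate 2 (genes tested 0.055) and -0.103 without WT replicate 2 (genes tested 0.063). Without WT replicate 1 it was -0.027 (genes tested 0.068). With libraries scaled by the median of ratios it was -0.162 (genes tested -0.021). The sign of the median of the 57 is therefore not settled by these libraries. In each of these settings it lay below the median of the genes tested. Both KO values lay below both WT values in 21 of the 57, against 28.7% of all genes, and above them in 17, against 39.3%.

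The number of falls depended on how the libraries were scaled. The direction of the 12 calls did not change under the 13 alternative settings, but only the scalings and the GC correction could have changed it. KO and WT values were separate for each of the 12, so the other settings could not turn a sign. With libraries scaled by the median of ratios, 15 of the 57 fell and 2 rose, against 15.51% and 11.99% of all genes, and the split of all calls moved to 43.6% higher and 56.4% lower, against 59.9% and 40.1% without scaling. The GC correction gave 14 falls and 3 rises, against 19.0% and 16.4% of all genes, and kept all 12 calls. Without the filter on low values, RRM2 alone of the 57 was called, with 2.65% of 19833 genes called in all. RRM2 was also the only one of the 12 that was called whichever of the 4 libraries was left out.

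**Figure D1:**
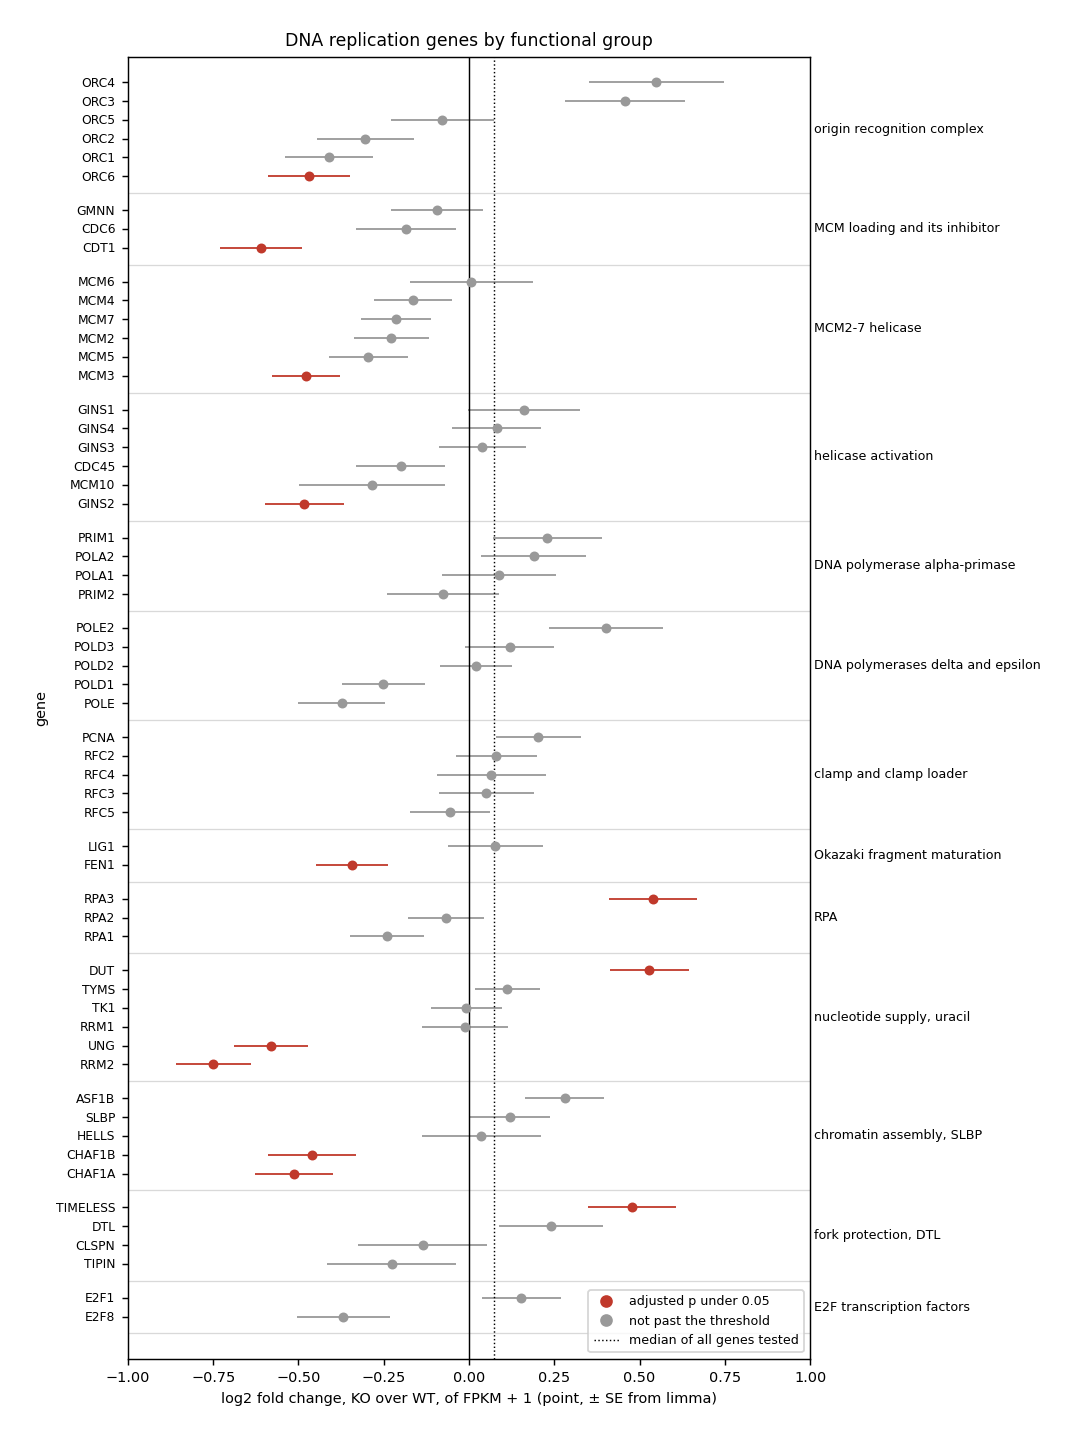
Log2 fold change of FPKM + 1, KO over WT (horizontal axis), of the 57 genes in 13 functional groups, as points with the SE of the limma fit. Red points are the 12 genes at an adjusted p under 0.05, grey points the other 45, and the dotted line is the median of all genes tested (0.074); values run from -0.75 for RRM2 to 0.55 for ORC4.

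The origin recognition complex, the 6-subunit ATPase that marks origins, had 1 subunit gene that fell, ORC6, and 5 that did not pass. ORC6, the smallest subunit, was at 26.75 and 27.95 FPKM in KO and at 39.43 and 37.14 FPKM in WT, and fell by 0.47 on the log2 scale (SE 0.12, adjusted p 0.0258). Both KO values lay below both WT values. The ORC6 call was lost without WT replicate 1 (adjusted p 0.133), WT replicate 2 (0.0853), KO replicate 1 (0.0812) or KO replicate 2 (0.0701). ORC1, the cell cycle-regulated ATPase subunit, was at 14.50 and 15.49 FPKM in KO and at 20.85 and 19.67 FPKM in WT (-0.41, adjusted p 0.0516), just outside the threshold, and was called after the GC correction (0.0222) and after scaling by the median of ratios (0.0244). ORC2 was at 6.94 and 6.75 FPKM in KO and at 9.01 and 8.37 FPKM in WT (-0.30, adjusted p 0.145) and was called with the GC correction (0.0189). ORC4 and ORC3 had positive values without passing. ORC4 was at 6.49 and 9.26 FPKM in KO and at 5.62 and 4.42 FPKM in WT (0.55, adjusted p 0.0742), and ORC3 at 13.36 and 15.11 FPKM in KO and at 11.81 and 8.58 FPKM in WT (0.46, adjusted p 0.0904). These AT-rich transcripts (37.7% and 39.4% GC) were the ones of this complex with the widest gaps between libraries of a group. ORC5 overlapped between the groups (-0.078).

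Of the factors that load the helicase, CDT1 fell and its partner and its inhibitor did not pass. CDT1, which brings MCM2-7 to the origin and is destroyed in S phase, was at 31.82 and 33.34 FPKM in KO and at 47.86 and 52.72 FPKM in WT. It fell by 0.61 on the log2 scale (SE 0.12, adjusted p 0.0114), a mean of 32.6 ± 1.07 FPKM in KO and 50.3 ± 3.44 FPKM in WT (SD, n = 2 each). The groups were separate, and the call was lost without WT replicate 2 (adjusted p 0.0721). CDC6, the ATPase that recruits CDT1 with MCM2-7, was at 40.48 and 45.85 FPKM in KO and at 55.14 and 43.80 FPKM in WT, which overlapped (-0.19, adjusted p 0.373). GMNN, the gene of geminin, which binds and blocks CDT1, was at 60.71 and 74.43 FPKM in KO and at 75.25 and 68.56 FPKM in WT (-0.094, adjusted p 0.629).

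In the MCM2-7 helicase, a ring of 6 different subunits, both KO values lay below both WT values for 5 of the 6 subunits, against 28.7% of all genes, and MCM3 alone passed the test. MCM3 was at 152.02 and 152.83 FPKM in KO and at 213.35 and 211.80 FPKM in WT, a fall of 0.48 on the log2 scale (SE 0.10, adjusted p 0.0135). Libraries of 1 group were within 2 FPKM of each other, and the call was lost without WT replicate 1 (adjusted p 0.0849) or WT replicate 2 (0.0774). MCM5 was at 60.39 and 64.50 FPKM in KO and at 73.31 and 80.54 FPKM in WT (-0.30, adjusted p 0.0949), and was called after the GC correction (0.0369) and the median-of-ratios scaling (0.0343). MCM2 was at 70.24 and 75.14 FPKM in KO and at 84.00 and 86.60 FPKM in WT (-0.23, adjusted p 0.157). MCM7, whose gene also carries an intronic microRNA cluster, was at 144.12 and 152.86 FPKM in KO and at 171.93 and 172.82 FPKM in WT (-0.21, adjusted p 0.156) and was called only after the median-of-ratios scaling (0.0460) among the settings run. MCM4 was at 44.18 and 44.20 FPKM in KO and at 51.20 and 48.08 FPKM in WT (-0.16, adjusted p 0.316). MCM6 was the exception, at 41.95 and 28.54 FPKM in KO and at 35.08 and 33.82 FPKM in WT (0.0071, adjusted p 0.981). Its KO libraries lay on either side of both WT values. Summed over the 6 genes, the level was 512.9 and 518.1 FPKM in KO and 628.9 and 633.7 FPKM in WT. Levels per length differed widely within the ring, with MCM6 lowest in all 4 libraries and MCM3 highest in 3 of them, MCM7 being highest in KO replicate 2.

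Among the factors that activate the helicase, GINS2 fell and the other GINS genes did not. GINS2, 1 of the 4 subunits of the GINS complex, was at 52.74 and 59.09 FPKM in KO and at 77.61 and 79.24 FPKM in WT, a fall of 0.48 on the log2 scale (SE 0.12, adjusted p 0.0213). The groups were separate. The call was lost without WT replicate 1 (adjusted p 0.0946), WT replicate 2 (0.107) or KO replicate 1 (0.0719). GINS3 was at 18.77 and 18.31 FPKM in KO and at 17.82 and 18.21 FPKM in WT (0.039), and GINS4 at 14.33 in both KO libraries and at 13.32 and 13.66 FPKM in WT (0.081). GINS1 was at 8.26 and 10.79 FPKM in KO and at 8.24 and 8.44 FPKM in WT (0.16, adjusted p 0.488). CDC45, the third part of the active helicase, was at 32.55 and 38.53 FPKM in KO and at 40.84 and 40.85 FPKM in WT (-0.20, adjusted p 0.279). MCM10, which acts in origin firing, was at 10.58 and 16.95 FPKM in KO and at 17.91 and 15.31 FPKM in WT (-0.28, adjusted p 0.349), so its groups overlapped.

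Of the replicative polymerases and of the clamp and its loader, 14 genes are described here. None of them passed, against 27.0% of all genes tested called in either direction. POLD4, another subunit gene of polymerase delta, is in a companion list below and rose (1.16, adjusted p 0.0175). DNA polymerase alpha-primase, which makes the RNA-DNA primers, had a median log2 fold change of 0.139 over POLA1, POLA2, PRIM1 and PRIM2, from -0.077 for PRIM2 to 0.23 for PRIM1. POLE, the catalytic subunit of the leading-strand polymerase, was at 19.43 and 17.72 FPKM in KO and at 24.75 and 23.92 FPKM in WT (-0.37, adjusted p 0.0657), and was called after the GC correction (0.0261) and the median-of-ratios scaling (0.0325). Its partner subunit gene POLE2 lay the other way, at 29.96 and 39.93 FPKM in KO and at 28.11 and 23.96 FPKM in WT (0.40, adjusted p 0.110). POLD1, the catalytic subunit of the lagging-strand polymerase, was at 34.16 and 30.91 FPKM in KO and at 38.63 and 39.13 FPKM in WT (-0.25, adjusted p 0.158). The accessory subunit genes POLD2 (0.019) and POLD3 (0.12) did not pass either. PCNA, the ring that holds polymerases on DNA, was at 158.84 and 193.86 FPKM in KO and at 154.28 and 150.26 FPKM in WT (0.20, adjusted p 0.253). The 2 KO libraries of PCNA differed more from each other than KO replicate 1 did from WT. The clamp loader genes RFC2, RFC3, RFC4 and RFC5 stayed between -0.055 and 0.079, and their groups overlapped.

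FEN1, the nuclease that trims the flaps of Okazaki fragments, fell, while the ligase that seals them did not pass. FEN1 was at 102.66 and 109.00 FPKM in KO and at 134.75 and 134.24 FPKM in WT, a fall of 0.34 on the log2 scale (SE 0.11, adjusted p 0.0467), the call closest to the threshold. It was lost without WT replicate 1 (adjusted p 0.187), WT replicate 2 (0.182), KO replicate 1 (0.117) or KO replicate 2 (0.0763), and without the mean-variance trend (0.0851). LIG1 was at 32.00 and 27.86 FPKM in KO and at 26.23 and 30.44 FPKM in WT (0.077, 95% interval -0.25 to 0.40). The subunits of RPA, the trimer that coats single-stranded DNA, did not move together. RPA3, the smallest subunit, was at 60.49 and 67.35 FPKM in KO and at 40.54 and 46.92 FPKM in WT and rose by 0.54 (SE 0.13, adjusted p 0.0207). Both KO values lay above both WT values, and the call was lost without WT replicate 1 (adjusted p 0.127) or KO replicate 2 (0.0915). RPA1, the large DNA-binding subunit, was at 69.10 and 67.38 FPKM in KO and at 78.87 and 82.73 FPKM in WT (-0.24, adjusted p 0.137; 0.0494 after the median-of-ratios scaling). RPA2 was at 59.03 and 61.38 FPKM in KO and at 62.08 and 64.13 FPKM in WT (-0.067).

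**Figure D2:**
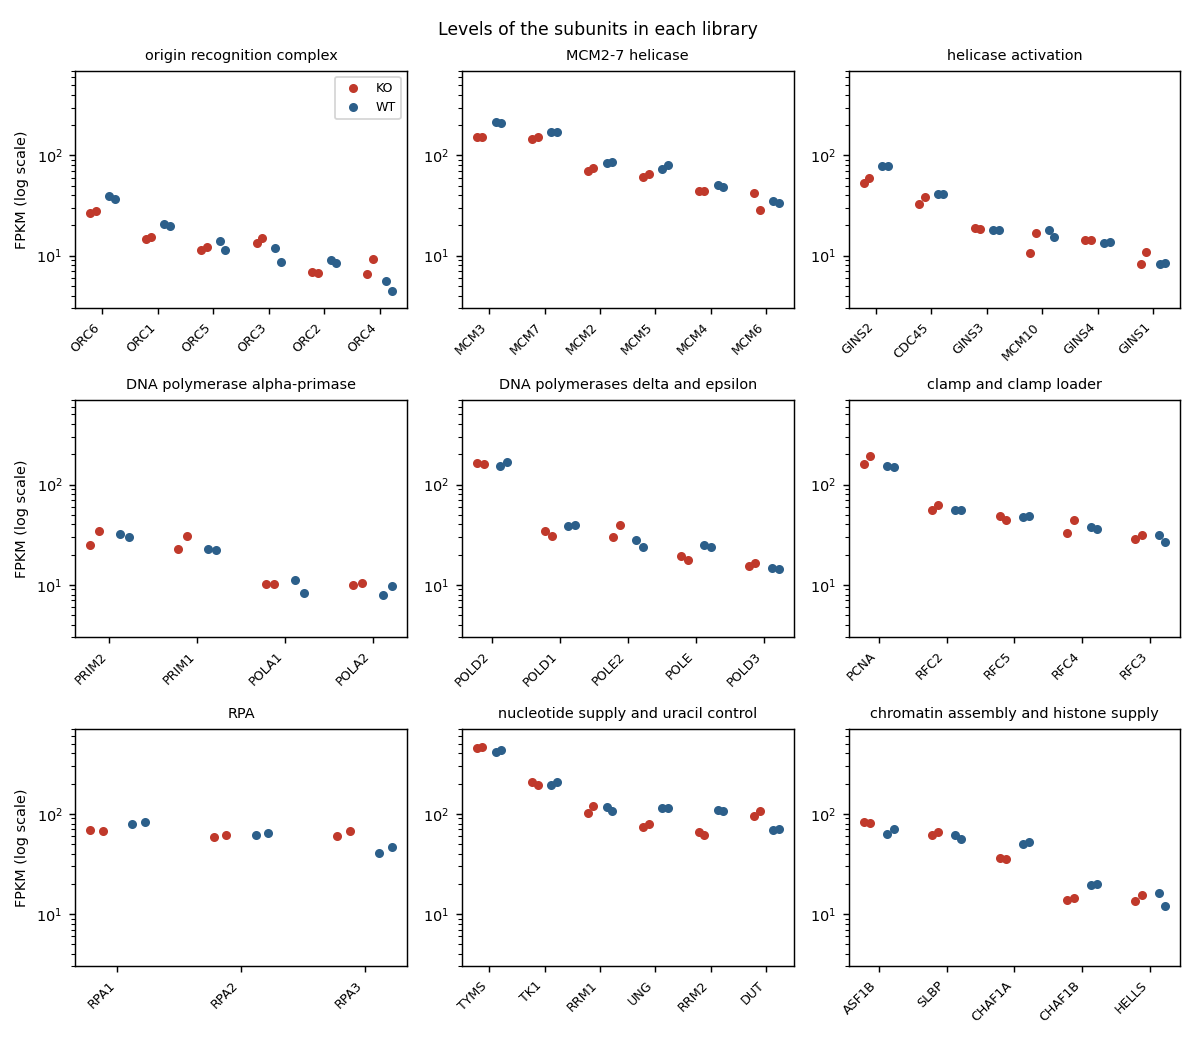
FPKM (log scale) in each library for the subunits of 9 functional groups, ordered by mean level within a group, with KO libraries in red to the left of WT libraries in blue. In MCM2-7 the KO points lie below the WT points for every subunit but MCM6, and in RPA the RPA3 points of KO lie above those of WT while the RPA1 points lie below.

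Nucleotide supply held the largest fall among the 57 genes. RRM2, the small subunit of ribonucleotide reductase, which makes deoxyribonucleotides and whose level limits the enzyme in S phase, was at 66.40 and 61.48 FPKM in KO and at 109.03 and 107.20 FPKM in WT. The mean of 63.9 ± 3.48 FPKM in KO against 108 ± 1.29 FPKM in WT (SD, n = 2 each) was a change of -40.9%, a fall of 0.75 on the log2 scale (SE 0.11, adjusted p 0.00449). Leaving out 1 library at a time, its log2 fold change stayed between -0.80 and -0.70 with adjusted p of at most 0.0340. RRM1, the large subunit, was at 100.66 and 119.02 FPKM in KO and at 115.55 and 105.39 FPKM in WT (-0.012, 95% interval -0.30 to 0.28). RRM2 has 3 named pseudogenes in GENCODE 29, and 20.2% of its exon bases lie in another annotated gene on the same strand, so its reads may be split differently by other counting.

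TYMS, the thymidylate synthase gene, and TK1, the gene of the salvage kinase for thymidine, did not pass. TYMS had the highest level of the 57 genes, 457.07 and 460.43 FPKM in KO and 417.01 and 432.33 FPKM in WT (0.11, 95% interval -0.11 to 0.33), and 39.1% of its exon bases overlap ENOSF1 on the opposite strand, which a library without strand cannot separate. TK1 was at 205.47 and 193.28 FPKM in KO and at 195.37 and 205.40 FPKM in WT (-0.0075, 95% interval -0.25 to 0.23). The pair that keeps uracil out of DNA went opposite ways. DUT, the gene of the enzyme that destroys dUTP, was at 94.20 and 106.96 FPKM in KO and at 68.83 and 69.74 FPKM in WT and rose by 0.53 (SE 0.12, adjusted p 0.0155). The groups were separate, and the call was lost without WT replicate 1 (adjusted p 0.0849), WT replicate 2 (0.0751) or KO replicate 2 (0.0666). DUT has 8 named pseudogenes, with which it may share reads. UNG, the glycosylase that removes uracil, was at 74.04 and 79.28 FPKM in KO and at 114.79 and 115.48 FPKM in WT and fell by 0.58 (SE 0.11, adjusted p 0.0092). Here too the groups were separate, and the call was lost without WT replicate 1 (adjusted p 0.0585) or WT replicate 2 (0.0557).

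Of the genes that package new DNA, the CAF-1 subunit genes CHAF1A and CHAF1B fell. RBBP4, the remaining CAF-1 subunit gene, is in a companion list and did not pass (-0.079, adjusted p 0.683). CAF-1 deposits histones H3 and H4 behind the fork. CHAF1A, its large subunit, was at 36.23 and 35.09 FPKM in KO and at 50 and 52.68 FPKM in WT, a fall of 0.51 on the log2 scale (SE 0.12, adjusted p 0.0169). CHAF1B, its middle subunit, was at 13.75 and 14.41 FPKM in KO and at 19.47 and 19.99 FPKM in WT, a fall of 0.46 (SE 0.13, adjusted p 0.0349). KO values lay below WT values for both. The CHAF1A call was lost without WT replicate 1 (adjusted p 0.0717), WT replicate 2 (0.0974) or KO replicate 2 (0.0640), and that of CHAF1B without WT replicate 1 (0.114), WT replicate 2 (0.133), KO replicate 1 (0.113) or KO replicate 2 (0.0963). ASF1B, the chaperone that hands histones to CAF-1, was at 82.04 and 80.42 FPKM in KO and at 63.08 and 70.56 FPKM in WT (0.28, adjusted p 0.107). SLBP, which binds the stem-loop of histone mRNAs, was at 61.80 and 65.27 FPKM in KO and at 61.41 and 55.50 FPKM in WT (0.12), and HELLS, a chromatin remodeller, overlapped (0.036).

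TIMELESS, which with TIPIN and claspin steadies the fork and relays checkpoint signals, rose and its partners did not pass. TIMELESS was at 19.85 and 19.49 FPKM in KO and at 13.42 and 14.26 FPKM in WT (0.48, SE 0.13, adjusted p 0.0311). The groups were separate. The call was lost without WT replicate 1 (adjusted p 0.135), WT replicate 2 (0.0878), KO replicate 1 (0.103) or KO replicate 2 (0.105), and after the median-of-ratios scaling (0.38, 0.0687). TIPIN was at 23.55 and 32.13 FPKM in KO and at 37.24 and 28.14 FPKM in WT (-0.23, adjusted p 0.400), and CLSPN, the gene of claspin, at 15.99 and 20.06 FPKM in KO and at 23.45 and 16.68 FPKM in WT (-0.14, adjusted p 0.619). Both overlapped, and WT replicate 1 was the highest of the 4 libraries for each. DTL, the substrate receptor of the ubiquitin ligase that degrades CDT1 on PCNA, was at 13.91 and 13.30 FPKM in KO and at 12.69 and 10.15 FPKM in WT (0.24, adjusted p 0.269).

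The 2 E2F genes did not pass. E2F1, an activator of the G1/S genes, was at 64.49 and 69.28 FPKM in KO and at 57.63 and 62.52 FPKM in WT (0.15, 95% interval -0.12 to 0.42, adjusted p 0.353). E2F8, a repressor of the same genes late in S phase, was at 10.26 and 11.32 FPKM in KO and at 14.28 and 14.14 FPKM in WT (-0.37, adjusted p 0.0814), and was called after the GC correction (0.0216) and the median-of-ratios scaling (0.0384). KO values of E2F1 lay above WT and those of E2F8 below.

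**Figure D3:**
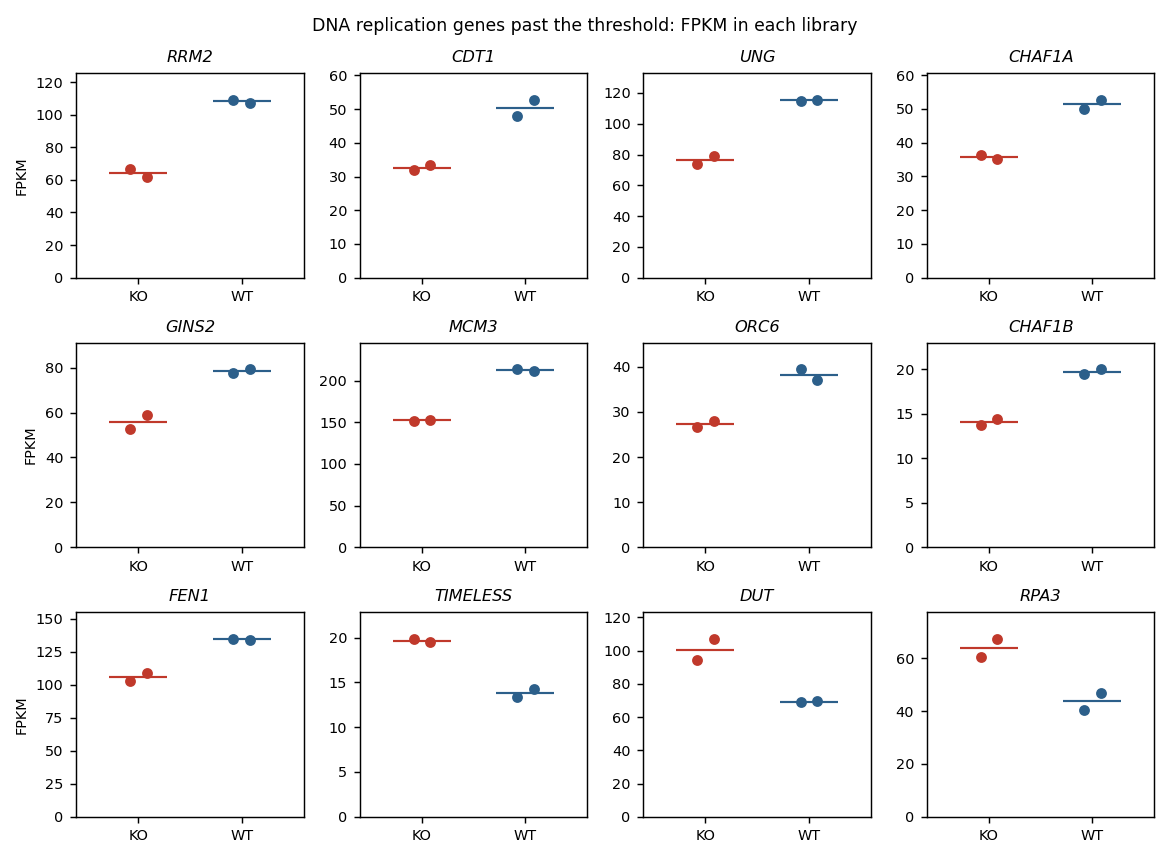
FPKM in each library (points) and group mean (line) of the 12 genes at an adjusted p under 0.05, KO left and WT right, in the order of their fold change. For each gene the KO and WT points do not overlap, from RRM2 (66.40 and 61.48 FPKM in KO, 109.03 and 107.20 FPKM in WT) to RPA3 (60.49 and 67.35 FPKM in KO, 40.54 and 46.92 FPKM in WT). Selection by the test favours such separation. Over all genes tested, both KO values lay below both WT values in 28.7% and above them in 39.3%.

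Ratios of FPKM within a library do not depend on the scaling between libraries, and 7 are given for pairs picked after the values were seen, with no test. The differences between libraries that went with GC content may not cancel in such a ratio. GC content was 47.5% for ORC6 and 37.7% for ORC4, and 43.7% for POLE2 and 55.6% for POLE. RRM2 per RRM1 was 0.660 and 0.517 in KO and 0.944 and 1.017 in WT. UNG per DUT was 0.786 and 0.741 in KO and 1.67 and 1.66 in WT. RPA3 per RPA1 was 0.875 and 1.00 in KO and 0.514 and 0.567 in WT. In each of these 3 pairs the groups were separate. For UNG per DUT and RPA3 per RPA1 this had to follow, as the genes of each pair were separate in opposite directions. The same holds for ORC6 per ORC4 and POLE2 per POLE below. MCM3 per MCM6 was 3.62 and 5.36 in KO and 6.08 and 6.26 in WT, and ORC6 per ORC4 was 4.12 and 3.02 in KO and 7.02 and 8.40 in WT. Both were lower in each KO library than in either WT library. POLE2 per POLE, at 1.54 and 2.25 in KO and 1.14 and 1.00 in WT, was also separate but spread more widely in KO. CHAF1A per CHAF1B, at 2.64 and 2.44 in KO and 2.57 and 2.64 in WT, overlapped.

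The spread between libraries was smaller for these genes than over all genes tested, which lay at lower levels. The median FPKM was 33.19 and 35.09 in KO and 39.43 and 39.13 in WT for the 57 genes. Over all genes tested it was 11.11 and 11.25 in KO and 10.6 and 10.54 in WT. The median absolute difference between replicates, on log2(FPKM + 1), was 0.102 in KO and 0.082 in WT, against 0.154 and 0.147 over all genes tested. The median size of the log2 fold change was 0.214 for the 57 genes and 0.288 for all genes tested. Neither was compared among genes of equal level. The 9 genes that fell had a median GC content of 50.7%, the 3 that rose 45.9% and the 45 not called 45.4%, against 48.2% over all genes tested. The part of GC content in the differences was tested only through the correction named above.

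**Figure D4:**
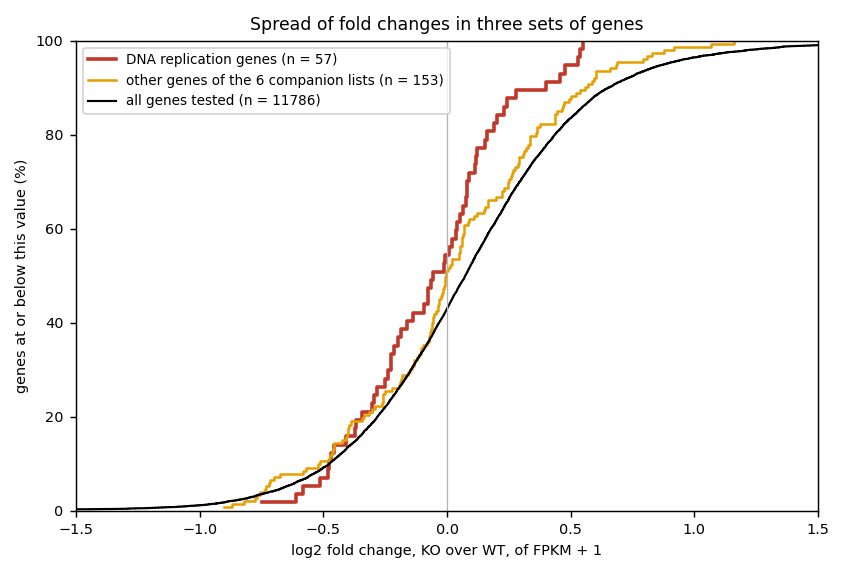
Cumulative share of genes (vertical axis, %) at or below a log2 fold change of FPKM + 1, KO over WT (horizontal axis), for the 57 replication genes, 153 genes of 6 companion lists and the 11786 genes tested. The curve of the replication genes reaches 100% at 0.55 and has its median at -0.055, against 0.074 for all genes.

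Companion lists of the same processes gave 27 falls and 13 rises among 153 genes tested (17.65% and 8.497%, against 10.8% and 16.2% of all genes), with a median of -0.006. The rule for naming genes (at most 3 in each direction per list, by the smallest p) picked 29 of the called ones. Of these 29, 9 were called whichever library was left out and are all named below; the others lost the call without at least 1 library, and some of them are named, with those libraries. In other nucleotide synthesis, 8 of 35 fell and 4 rose (22.86% and 11.43%, median -0.036). CAD, the enzyme of the first steps of pyrimidine synthesis, was at 15.40 and 11.71 FPKM in KO and at 25.72 and 26.26 FPKM in WT (-0.90, adjusted p 0.0075), and PFAS, an enzyme of purine synthesis, fell by 0.72 (adjusted p 0.00916). DCK, the salvage kinase for deoxycytidine, was at 33.05 and 33.24 FPKM in KO and at 18.33 and 18.61 FPKM in WT (0.81, adjusted p 0.0048), and GUK1, the guanylate kinase, rose by 0.83 (adjusted p 0.00513). CTPS1, the CTP synthase gene, fell by 0.70, a call lost without WT replicate 1 (adjusted p 0.0503). In replication-coupled chromatin, 3 of 16 fell and 1 rose (18.75% and 6.25%, median -0.064). UHRF1, at 41.88 and 41.26 FPKM in KO and at 73.82 and 68.10 FPKM in WT (-0.76, adjusted p 0.00497), recruits the methyltransferase DNMT1 to newly copied DNA, and DNMT1 fell by 0.72 (adjusted p 0.00558).

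Of the E2F, RB and G1/S list, 7 of 30 fell and 2 rose (23.33% and 6.667%, median -0.011). Over all genes tested, 10.8% fell and 16.2% rose, which holds for each list below. TFDP1, the DNA-binding partner of E2F proteins, was at 70.36 and 73.87 FPKM in KO and at 112.91 and 104.37 FPKM in WT (-0.58, adjusted p 0.00982), and E2F3 was at 13.52 and 14.07 FPKM in KO and at 24.08 and 21.21 FPKM in WT (-0.67, adjusted p 0.0118). CDC25A, the phosphatase that activates CDK2, was at 12.70 and 14.60 FPKM in KO and at 26.83 and 23.00 FPKM in WT (-0.82, adjusted p 0.00777). These 3 calls were lost without WT replicate 1 (adjusted p 0.0727, 0.0712 and 0.0502). CDKN1B, the gene of the CDK inhibitor p27, was at 26.48 and 22.17 FPKM in KO and at 15.54 and 16.80 FPKM in WT (0.56, adjusted p 0.0258). The call was lost without WT replicate 1, WT replicate 2 or KO replicate 1, and after scaling by the median of ratios (0.453, adjusted p 0.054). Of other replisome and origin firing genes, 3 of 33 fell and 3 rose (9.091% each, median 0.089). RNASEH2C, a subunit of the nuclease that removes ribonucleotides from DNA, rose by 0.92 (adjusted p 0.00457). It was at 61.81 and 71.48 FPKM in KO and at 32.07 and 37.46 FPKM in WT. SSRP1, a subunit of the histone chaperone FACT, was at 187.22 and 174.24 FPKM in KO and at 262.0 and 257.0 FPKM in WT (-0.52, adjusted p 0.0111), a call lost without WT replicate 1 (0.0739) or WT replicate 2 (0.0613). DBF4B, an activator of the kinase CDC7, fell by 0.57 (adjusted p 0.0189), lost without WT replicate 1 (0.0607), WT replicate 2 (0.103) or KO replicate 2 (0.0875), and the topoisomerase gene TOP1 fell by 0.47 (adjusted p 0.0340), lost without any 1 of the 4 libraries (0.0587 to 0.198). POLD4, the smallest subunit of polymerase delta, rose by 1.16 (adjusted p 0.0175), lost without WT replicate 1 (0.0648) or KO replicate 2 (0.105), and TOP2A, the topoisomerase of dividing cells, rose by 0.60 (adjusted p 0.0292), lost without WT replicate 2 (0.158), KO replicate 1 (0.0751) or KO replicate 2 (0.113), and after scaling by the median of ratios (0.0510). The S phase checkpoint list had 2 falls and 1 rise among 14 (14.29% and 7.143%, median 0.237). CUL4B rose by 0.88 (adjusted p 0.00624), while CUL4A, the other scaffold of the ligase that uses DTL, fell by 0.51 (adjusted p 0.0166), a call lost without WT replicate 1 (0.0776), WT replicate 2 (0.0905) or KO replicate 1 (0.0561). Of the mitosis list, 4 of 25 fell and 2 rose (16.0% and 8.0%, median -0.074). CDC20, an activator of the anaphase-promoting complex, was at 153.02 and 126.79 FPKM in KO and at 227.21 and 238.93 FPKM in WT (-0.74, adjusted p 0.00634). KIF20A fell by 0.87 (adjusted p 0.0127) and PLK1 by 0.78 (adjusted p 0.0217). Both of these calls were lost without WT replicate 1 or WT replicate 2. The other way, CDK1, the mitotic kinase, was at 104.25 and 131.87 FPKM in KO and at 79.79 and 68.38 FPKM in WT (0.66, adjusted p 0.0163), a call lost without WT replicate 2 (0.0960) or KO replicate 2 (0.0722), and HMMR, a spindle protein gene, rose by 0.79 (adjusted p 0.0154), lost without WT replicate 2 (0.0680), KO replicate 1 (0.0777) or KO replicate 2 (0.0666).

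**Figure D5:**
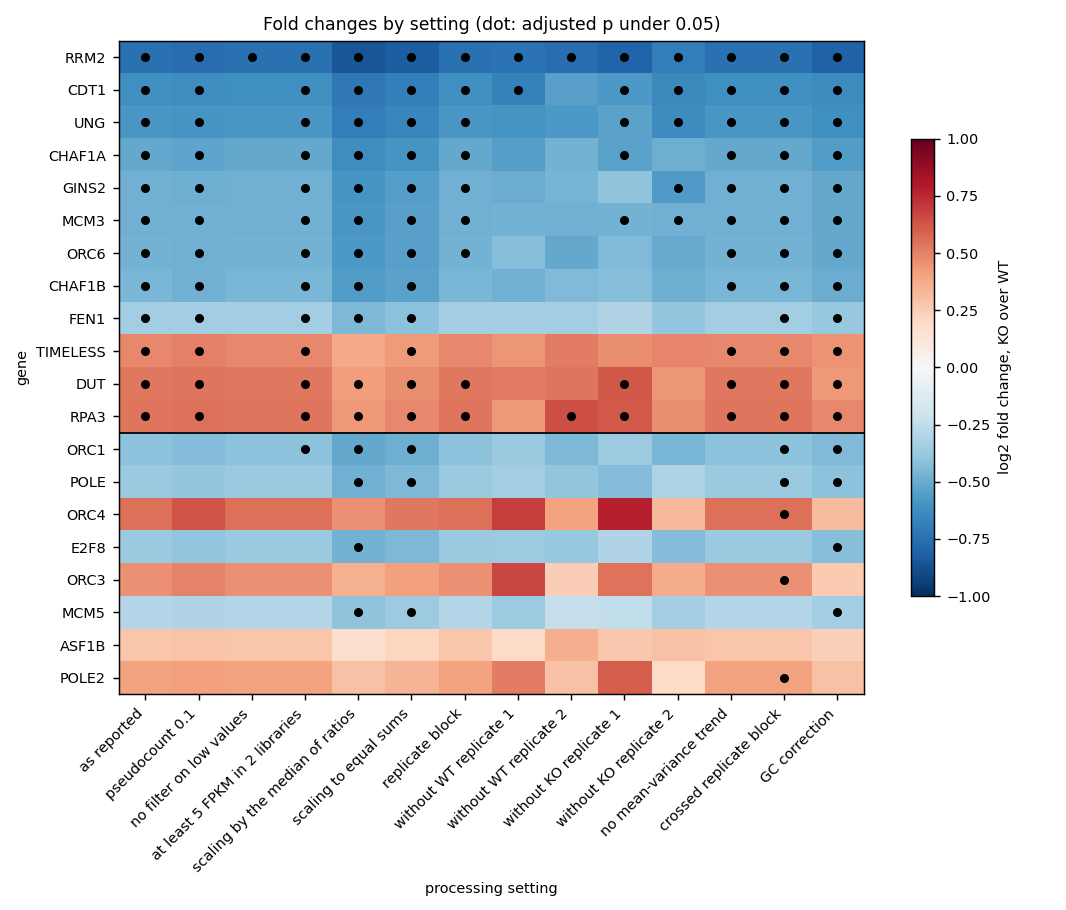
Log2 fold change, KO over WT (colour), of the 12 called genes (above the line) and the next 8 by adjusted p (below it) under the reported setting and 13 alternatives, with a dot where the adjusted p was under 0.05. RRM2 has a dot in every column, and no called gene changes colour from blue to red or back. Only the scalings and the GC correction could have brought such a change about.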

How the data were processed

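Per the file headers, the table that the authors deposited holds FPKM, with 2 decimals, for 2 KO and 2 WT libraries of MDA-MB-231 cells. The submitters' processing notes name HISAT, StringTie, Cufflinks and GATK and the build hg38, without roles; which of them made the FPKM, with what filters and at what depth, is not stated, so no interval from read counts is given. Columns were matched to samples by the labels' descriptions.

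Values were analysed as log2(FPKM + 1), which understates changes of low genes, without scaling, for the 11786 genes that reached 1 FPKM in 2 or more libraries. All p-values are from limma 3.58.1 (R 4.3.3; moderated test, mean-variance trend, two-sided) with Benjamini-Hochberg adjustment over all genes tested. In data simulated for KO against WT with 11786 genes, this fit found 16.4% of 67 changes of 0.3 (log2). It found 50.7% of 67 of 0.5 and 98.5% of 66 of 1, so smaller changes were often missed there. Only these genes were changed, against 27.0% of genes called in the data, so the shares may not hold for the data. Gene positions, overlaps and 3′ UTRs came from GENCODE 29 (GRCh38), and promoters and the microRNA from RefSeq. The GC correction fitted a loess curve (span 0.3) per library. Summaries used pandas 2.3.3 (Python 3.11.15).

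The members and lists were chosen with earlier results of these data known. All 57 members could be named. Of the companion lists, at most 3 genes in each direction with the smallest p could be, and RBBP4 as a CAF-1 subunit gene.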

Additional observations from a re-analysis of the deposited data

How the results depend on the processing

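There were 13 alternatives (11 planned, and the GC correction and the crossed block added after seeing the data). The 12 calls kept their direction under the scalings and the GC correction. The other alternatives could not turn it, as KO and WT values were separate for each of the 12. A pseudocount of 0.1, a minimum of 5 FPKM, equal sums and no mean-variance trend left 12, 12, 12 and 11 of them called. Without the filter on low values 525 genes were called (290 higher, 235 lower), with 0 members higher and 1 lower. Over the settings that left out 1 library, calls ranged from 1402 to 1902 genes (845 to 1183 higher, 509 to 824 lower), members higher from 0 to 2 and lower from 1 to 5, and the median of the members from -0.127 to 0.013. The median of ratios gave 15 members lower and a median of -0.162; the GC correction gave 14 lower, a median of -0.152 and 2163 genes lower in all. The cause of these shifts was not tested. Replicate numbers are shared by KO and WT, but nothing says that they pair libraries: deviations of same-numbered libraries from their group means correlated at -0.177 across genes. With a replicate block, 7 members were lower and 2 higher, and FEN1, CHAF1B and TIMELESS lost their calls. With the crossed replicate block, 11 members were lower and 6 higher. With 2 libraries a group, 2 residual degrees of freedom limit every call, and depth is unknown.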
